A study of Mus musculus with 4 samples.

Results

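The genes described here are *Trpc6*, *Pcp4l1* and 6 relatives of theirs, *Trpc1*, *Trpc2*, *Trpc4*, *Trpc5*, *Trpc7* and *Pcp4*. They are 8 of the 28095 gene names on a whole-genome mouse array, and their members are all 13 non-control probes that carry 1 of these names. *Trpc6* and *Pcp4l1* were chosen because their signals were lower in *Meis1*-deficient than in control LSK cells, so for both genes the difference is given as a description, with no p and as support for nothing. The relatives were taken by family.

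LSK cells, sorted from mouse bone marrow by the lack of lineage markers and the presence of Sca-1 and c-Kit, hold the hematopoietic stem cells. Meis1-KO samples came from *Mx1-Cre*+ *Meis1* fl/fl mice and Meis1-WT samples from *Meis1* fl/fl mice without the transgene, all on a C57BL/6J background and 4 to 8 weeks old, with 2 arrays per genotype. The sample labels give both genotypes 4 injections of poly(I:C) at 1.5 µg/g, while the series design and the microarray methods call the controls sham-treated, so an effect of poly(I:C) and one of the deletion cannot be told apart if the latter holds. *Mx1-Cre* is switched on by interferon and is not limited to blood cells, both groups carry the floxed allele, and each sample was a pool of mice.

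TRPC proteins are subunits of calcium-permeable cation channels of the plasma membrane. They open downstream of receptors that activate phospholipase C, and *Trpc6* and *Trpc7* belong to the subfamily that diacylglycerol opens directly, whereas *Trpc4* and *Trpc5* form a subfamily of their own and *Trpc2* is a pseudogene in humans. Pcp4 and Pcp4l1 are small proteins with an IQ motif, the sequence by which many proteins bind calmodulin, the main calcium sensor of the cytosol, and both are best known from neurons.

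2 of the probes are shown because the comparison of *Trpc6* with its closest measurable relative rests on them. Both are 60 bases long, read 5′ to 3′, and each has 1 forward reading frame without a stop codon. The *Trpc6* probe A_51_P411452 lies on the plus strand of chromosome 9 (mm9, 8679469 to 8679528), and the *Trpc1* probe A_51_P196019 on the minus strand of the same chromosome (mm9, 95610610 to 95610669).
Trpc6 probe: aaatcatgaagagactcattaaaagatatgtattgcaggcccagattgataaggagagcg
Trpc1 probe: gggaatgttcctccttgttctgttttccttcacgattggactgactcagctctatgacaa

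On each array the scanner software flags whether a probe is well above background. Between 49.2% and 57.4% of spots had this flag, with the lowest share on Meis1-KO 2, whose 75th percentile of signal was 90.3 against 147 to 154 on the others. Meis1-KO 2 also correlated less well with the other arrays (0.891 to 0.916) than these did among themselves (0.956 to 0.967). Both *Meis1* probes were lower in both Meis1-KO samples than in both controls, as were 10.9% of the 22007 tested probes. Tested probes were well above background in both samples of at least 1 genotype. A_52_P26195 was at -2.46 and -3.54 against -1.55 and -1.06 on the scaled log2 axis, and A_52_P670612 at 0.25 and 0.22 against 1.02 and 1.45. Neither was both over 2-fold lower and under an unadjusted p of 0.01 (limma adjusted p = 0.983 for both), while with the slide as a block A_52_P26195 was (-1.70, limma adjusted p = 0.496). Whether these probes lie in the deleted exon was not determined. *Kit*, *Ly6a* and *Cd34*, markers of the sorted fraction, were well above background on all 4 arrays. No cell was counted here: in bulk RNA, fewer cells of a type and less RNA per cell cannot be told apart.

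The *Trpc6* probe was well above background on all 4 arrays. Its processed signal was 32.1 and 23.3 on Meis1-KO 1 and 2, and 199 and 464 on Meis1-WT 1 and 2. After scaling to each array's 75th percentile, its log2 level was -2.21 and -1.96 in the Meis1-KO samples against 0.44 and 1.59 in the controls. Both deficient samples lay below both controls, as for 10.9% of tested probes, and the gene was chosen for its fall. The 2 deficient samples lay close together while the controls were farther apart (SD 0.18 and 0.81, n = 2 each). The difference was -3.10 on the log2 scale (SE 0.53), an 8.56-fold lower signal, and -1.77 under normexp background correction. Within slide 1, which holds replicate 1 of both genotypes, it was -2.65, and within slide 2 it was -3.55.

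*Pcp4l1* is read by 1 probe, A_51_P361150 (mm9, chromosome 1, 173103576 to 173103635, minus strand), which was also well above background on all 4 arrays. Its processed signal was 498 and 143 in the Meis1-KO samples and 2331 and 2119 in the controls. The scaled log2 levels were 1.75 and 0.67 against 3.99 and 3.78. Here the 2 controls lay close together and the deficient samples farther apart (SD 0.15 and 0.76). Both deficient samples again lay below both controls, as for 10.9% of tested probes. The difference was -2.68 on the log2 scale (SE 0.52), a 6.41-fold lower signal, with -2.24 within slide 1 and -3.11 within slide 2.

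Both genes had been chosen from among the probes with a change over 2-fold at an unadjusted p under 0.01, the thresholds used in the study and called the criteria here. In the limma fit across all 22007 tested probes, 132 probes (0.6%) met them as lower and 30 (0.136%) as higher in Meis1-KO. No probe had a Benjamini-Hochberg adjusted p under 0.05 in limma, where 618 had an unadjusted p under 0.05. With the slide as a block, 308 probes were lower, 130 were higher and 50 had an adjusted p under 0.05. As a description of the choice itself, *Trpc6* would not have been chosen without control replicate 2 (-2.53), nor *Pcp4l1* without control replicate 1 (-2.58) or control replicate 2 (-2.78).

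**Figure D1:**
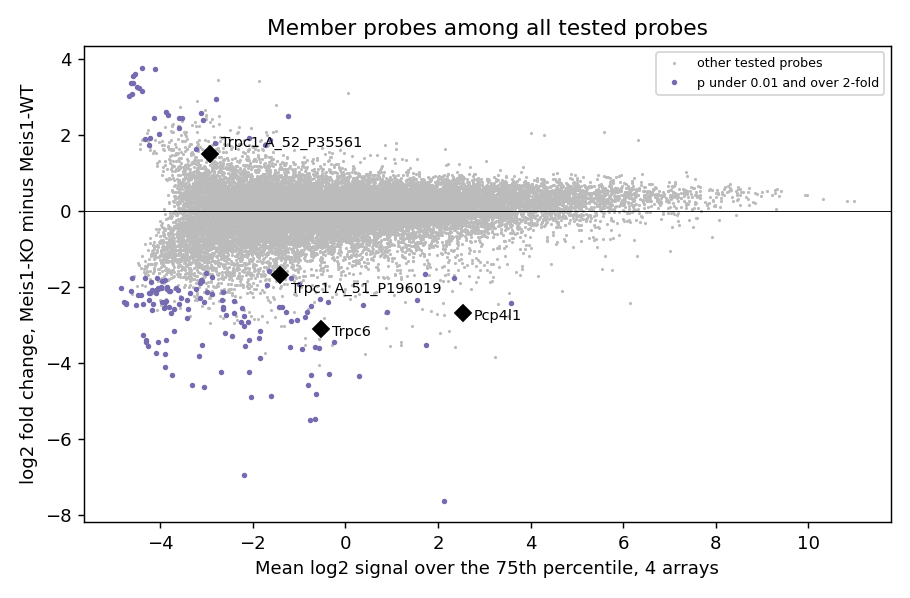
Difference between genotypes (log2, Meis1-KO minus Meis1-WT) against the mean log2 signal over 4 arrays for the 22007 tested probes. Black diamonds are the 4 tested member probes, with *Trpc6* at -3.10 and *Pcp4l1* at -2.68; the *Trpc1* probes lie on either side of 0, and purple points met the criteria.

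*Trpc1*, which joins other TRPC subunits in mixed channels, was the only relative with a tested probe, and its probes moved apart. A_51_P196019, which matches the reference transcript, had processed signals of 59.8 and 9.77 in the Meis1-KO samples and 107 and 95.3 in the controls, and was not well above background on Meis1-KO 2. Its log2 levels were -1.31 and -3.21 against -0.46 and -0.69. Both deficient samples lay below both controls, which 10.9% of tested probes also did. The difference was -1.68 (SE 0.69, limma adjusted p = 0.983), or -0.47 under normexp, and did not meet the criteria.

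The second *Trpc1* probe, A_52_P35561, matches a cDNA clone, lies 38.9 kb from the first and was not well above background on Meis1-WT 2. Its signals were 12.2 and 53.5 in the Meis1-KO samples and 11.2 and 12.2 in the controls. Meis1-KO 2 stood alone, and the other 3 arrays lay between -3.71 and -3.60 on the log2 scale. The difference was 1.51 (SE 0.91, limma adjusted p = 0.983), or 0.66 under normexp. Both probes turned on the same array. Without Meis1-KO 1 the differences were -2.63 and 2.93 and both passed the criteria, as did 7.75% of tested probes in the lower and 2.32% in the higher direction in that fit, and without Meis1-KO 2 they were -0.74 and 0.08. In these fits the spread comes from the 2 controls alone, and the lone deficient sample is assumed to vary like them. Each probe was tested only through the genotype in which it was high, and the -2.63 rests on 1 spot that was not well above background, so these calls are no support for a change of *Trpc1*. The third *Trpc1* probe, A_52_P547315, also matches a clone and was well above background on Meis1-KO 1 only, where its signal was 9.06.

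**Figure D2:**
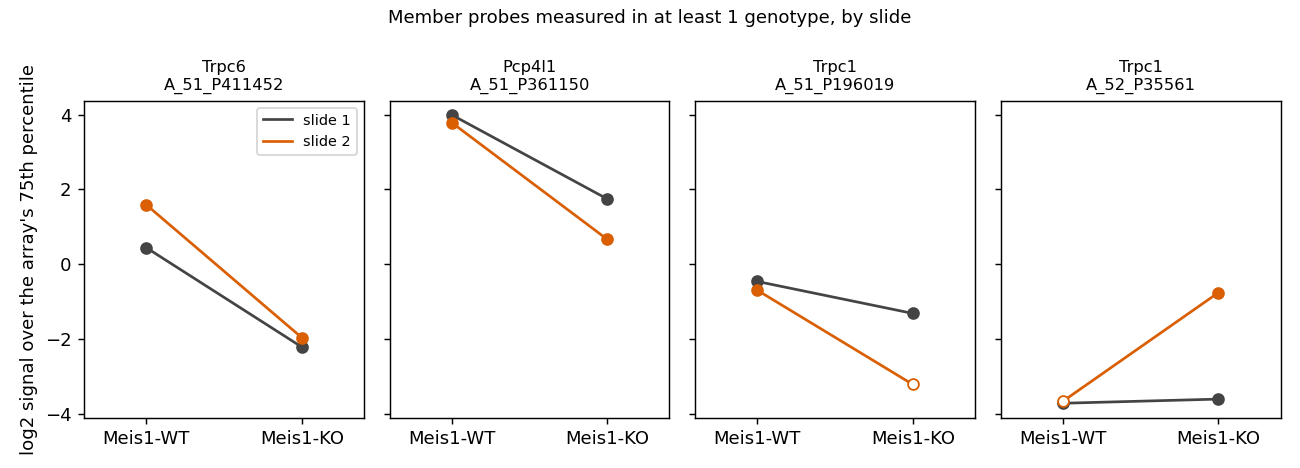
Log2 signal over the array's 75th percentile of the 4 tested member probes, with a line joining the Meis1-WT and Meis1-KO arrays of 1 slide; open points were not well above background. *Trpc6* and *Pcp4l1* fall by at least 2.24 on both slides, while the *Trpc1* probes change by -0.85 and 0.11 on slide 1 and by -2.51 and 2.90 on slide 2.

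The other relatives were not well above background in the control samples. *Trpc2*, a pheromone-sensing channel of the mouse vomeronasal organ, has 3 probes, of which only A_52_P263289, a clone-derived probe, was well above background, and only on Meis1-KO 2, where its signal was 16.5. *Trpc4* (2 probes), *Trpc5*, *Trpc7* and *Pcp4* (1 probe each) were not well above background on any array. In all, 7 of the 13 probes were never well above background, with signals from 1.61 to 9.11. These 4 genes and *Trpc2* therefore have no difference to compare. A dim probe does not show that a transcript is absent, since no array sample with a known level of these genes was analysed here.

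**Figure D3:**
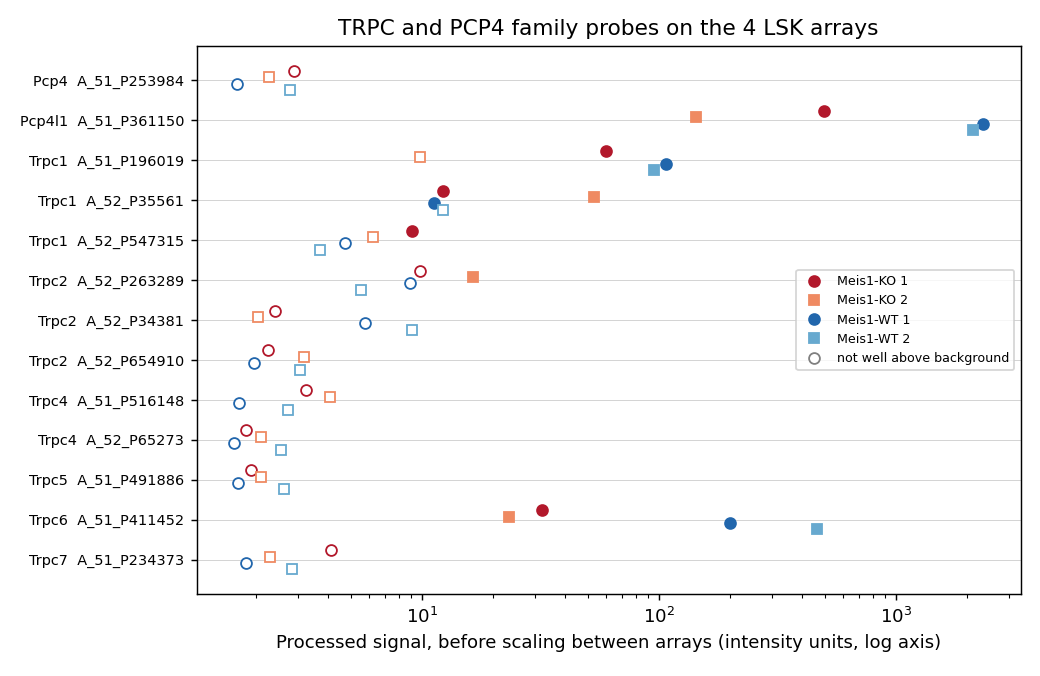
Processed signal of the 13 member probes before scaling between arrays (log axis), with a symbol per array; open symbols were not well above background. *Trpc6* and *Pcp4l1* are the 2 genes measured on all 4 arrays, and *Pcp4*, *Trpc4*, *Trpc5* and *Trpc7* have open symbols only; levels of different probes are not comparable.

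The promoter windows of *Pcp4l1* and *Trpc6* are shown since both genes had lower signal without Meis1, a homeodomain protein whose known recognition sequence is TGACAG. RefSeq (GRCm38.p6) gave windows of 300 bases, 250 before and 50 after the annotated start, for all 8 genes. Capitals mark TGACAG on either strand.
Pcp4l1, chr1:171196219-171196518, minus strand: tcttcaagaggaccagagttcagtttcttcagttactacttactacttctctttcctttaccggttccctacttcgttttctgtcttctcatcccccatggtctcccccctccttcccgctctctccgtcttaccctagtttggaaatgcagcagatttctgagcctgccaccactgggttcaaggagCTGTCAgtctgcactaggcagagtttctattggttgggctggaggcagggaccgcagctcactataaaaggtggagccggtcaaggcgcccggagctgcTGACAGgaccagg
Trpc6, chr9:8543892-8544191, plus strand: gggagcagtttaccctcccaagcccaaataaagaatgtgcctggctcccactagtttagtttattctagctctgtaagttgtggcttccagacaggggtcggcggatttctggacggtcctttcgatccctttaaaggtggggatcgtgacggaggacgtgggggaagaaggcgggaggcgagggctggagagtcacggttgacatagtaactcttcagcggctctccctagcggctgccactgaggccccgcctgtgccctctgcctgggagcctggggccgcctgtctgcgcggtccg

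The *Pcp4l1* window held 2 matches, 1 on each strand, the first starting 62 bases before the annotated start and the second at base 38 after it. The window of *Trpc6*, and those of the other 6 genes, held none. Of all 32851 windows, 19.2% held at least 1 match and 2.33% held 2 or more. The longer form, TGAT joined to TGACAG, and TGATTNAT were in none of the 8 windows and in 0.222% and 3.22% of all. The *Trpc6* window had a GC content of 60% with 17 CG dinucleotides, and the *Pcp4l1* window 53.3% with 8, where the medians of all windows were 52.7% and 7. A match is a description of letters, and no binding was measured here.

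None of the listed genes of calcium and calmodulin signalling met the criteria, which few probes did (0.6% lower and 0.136% higher). Of 95 such genes on the array in 8 lists, 70 were tested by their brightest probe, 42 were lower and 28 higher in Meis1-KO, and the median difference was -0.09 on the log2 scale against 0.08 for all tested probes. Without Meis1-KO 1, which leaves a single deficient sample and takes the spread from the controls alone, 10 of the 70 met the criteria as lower, *Iqgap1* (-2.06) and *Iqgap2* (-3.90) among them, where 7.75% of all tested probes did.

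Upstream of TRPC channels, phospholipase C isoforms make the diacylglycerol and IP3, and IP3 receptors release stored calcium. In this list 12 of 13 tested genes were lower (median -0.33), but 5 of 13 were under normexp background correction (median 0.03) and 6 of 13 without Meis1-KO 2 (0.03). *Plcg2*, the isoform downstream of tyrosine kinases, differed by -0.28, *Gnaq*, a G protein subunit that activates phospholipase C, by -0.30, and *Dgkz*, a kinase that removes diacylglycerol, by -0.33. In store-operated entry, which refills the stores, 4 of 7 genes were lower (median -0.11; 0.06 under normexp). The channel subunit *Orai3* was at 3.43 and 4.45 in Meis1-KO against 3.20 and 3.30, a difference of 0.69, or 0.18 without Meis1-KO 2. *Asph*, whose locus also encodes junctate, a calcium-store protein, differed by -0.70, and *Tmem66*, a brake on store-operated entry, by 0.11. Both Meis1-KO samples lay beyond both controls for *Orai3* and *Asph*, which was the case for 16% of tested probes in the higher and 10.9% in the lower direction, and neither met the criteria.

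Proteins that bind TRPC channels had a median of -0.02 over 11 genes, which was 0.06 under median scaling. Among them the scaffold *Homer3* differed by 0.60, or 0.0057 without Meis1-KO 2, the PDZ adaptor *Slc9a3r2* by 0.16 and the immunophilin *Fkbp4* by 0.08. Of the other TRP channels, 9 of 18 had a brightest probe that was well above background on no array. Of the 7 tested, 5 were higher (median 0.38), but 3 of 7 without Meis1-KO 2 (-0.07). *Mcoln1*, a lysosomal channel, differed by 0.72, *Trpv2* by 0.38 and the channel kinase *Trpm7* by 0.05. Calcium pumps and exchangers, which clear the ion, had a median of -0.09 over 7 genes, which was 0.16 without Meis1-WT 2, and *Atp2a2*, *Atp2b1* and *Atp2c1* differed by -0.09, -0.08 and -0.27.

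Of the calmodulin genes, 4 of 5 tested were higher (median 0.48), but 1 of 5 without Meis1-KO 2 (-0.14). *Calm2* was at 8.18 and 9.23 in Meis1-KO against 8.30 and 8.15, and *Calm3* at 3.83 and 5.25 against 3.92 and 4.18. In both, Meis1-KO 2 was above the other 3 arrays, while Meis1-KO 1 lay between the controls for *Calm2* and below both for *Calm3*. Genes that bind calmodulin through IQ motifs or act beside it were lower in 8 of 9 cases (median -0.70), but in 5 of 9 under normexp (-0.05) and without Meis1-KO 2 (-0.01). The scaffold *Iqgap2* was at 1.28 and -2.20 against 1.87 and 1.53, a difference of -2.16 that was -0.42 without Meis1-KO 2, *Iqgap1* at 2.07 and -0.02 against 2.05 and 2.02, and the membrane scaffold kinase *Cask* differed by 0.41. Calmodulin-dependent kinases had a median of 0.02 over 11 genes, which was -0.04 without Meis1-KO 2, and *Camk2d*, *Camkk1* and *Camkk2* differed by -0.28, 0.38 and 0.14. With the slide as a block, 1 of the 70 genes met the criteria as lower and none as higher, where 1.4% and 0.591% of tested probes did. It was *Camk1d*, a kinase named here after its value was seen (-2.84, limma adjusted p = 0.38), and it was not well above background on 1 array.

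**Figure D4:**
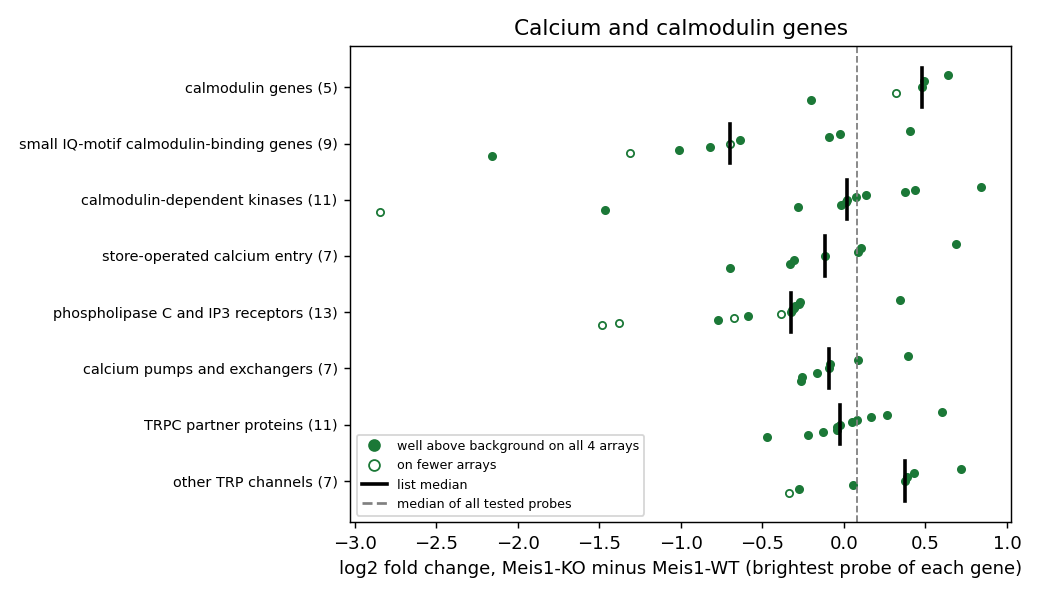
Log2 difference (Meis1-KO minus Meis1-WT) of the brightest probe of each tested gene in 8 lists, with the number tested in brackets, list medians as bars and the median of all tested probes (0.08) as a dashed line. None of the 70 genes met the criteria with all 4 arrays and no block, and the lowest, at -2.84, is *Camk1d*.

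The probes whose pattern over the 4 arrays was nearest to *Trpc6* were those of *Treml1*, *Hmga2*, *Npdc1*, *Nupr1* and *Tmprss3*, out of 16929 named probes well above background on all arrays. Nearness was the Euclidean distance of log2 values after each probe's own mean was subtracted, and it ran from 0.64 for *Treml1*, a platelet surface protein, to 1.24. For *Pcp4l1* the 5 nearest were *Nupr1*, *Tmprss3*, *Cyp26b1*, *Hlf* and *Npdc1* (0.39 to 0.69), so 3 probes were near to both. *Trpc6* and *Pcp4l1* themselves were 1.41 apart, with 9 probes closer to *Trpc6* and 38 closer to *Pcp4l1* than that. Each pattern rests on 4 values.

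**Figure D5:**
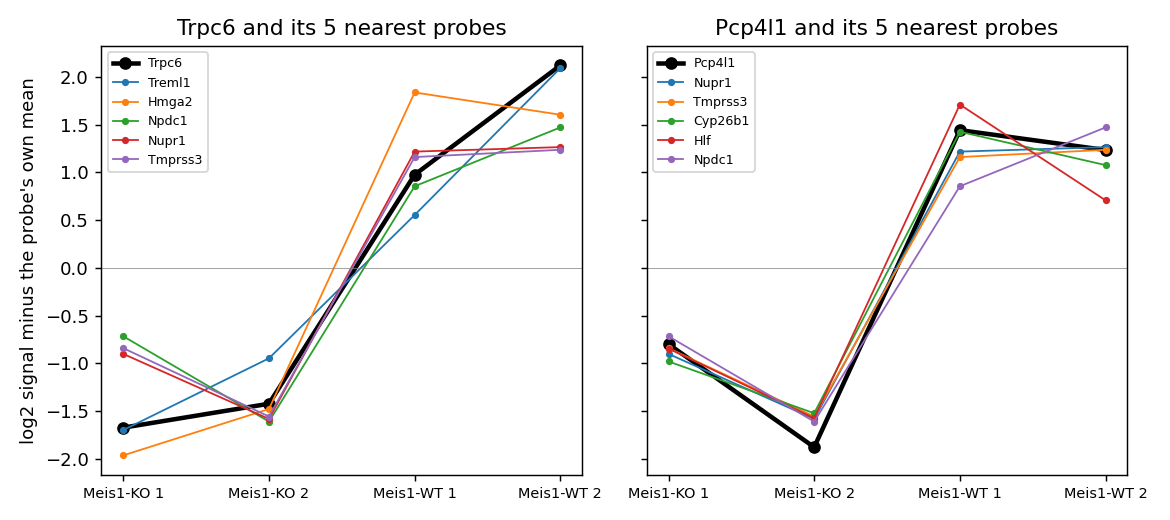
Log2 signal minus the probe's own mean on the 4 arrays for *Trpc6* and *Pcp4l1* (black) and their 5 nearest probes (colours). *Trpc6* and *Treml1* are highest on Meis1-WT 2, and *Pcp4l1* is lowest on Meis1-KO 2.

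Marker lists of other cells differed between the arrays in both directions. The summed signal of 6 megakaryocyte markers, in multiples of each array's 75th percentile, was 10.2 and 11.8 in Meis1-KO and 9.98 and 36.2 in the controls. Meis1-WT 2, where *Trpc6* was highest, thus stood above the rest. On Meis1-WT 1, with the lowest sum, *Trpc6* was at 0.44, against -2.21 and -1.96 in the Meis1-KO samples. All 6 markers were well above background on every array, 3 were lower and 3 higher in Meis1-KO, and none met the criteria. The sum of 8 stem cell markers was 63.9 and 45.1 against 95.9 and 64.5, with 5 of them lower and 3 higher. Only *Hlf* met the criteria (-2.42), at 2.73 and 2.01 on the log2 axis against 5.29 and 4.29. The sum includes *Hlf* and was not taken without it. That of 5 lymphoid-primed markers was 43.9 and 25.5 against 98.1 and 59.2, and of these *Flt3* met the criteria (-3.33), though it was not well above background on Meis1-KO 2. The sum of 6 erythroid markers was higher in Meis1-KO, 98.2 and 245 against 85.9 and 23.2, but of the 5 tested 3 were higher and 2 lower. *Rhag* met the criteria (1.72). The sum of 7 granulocyte and monocyte markers was 134 and 106 against 113 and 63.4. Of the 5 tested, 3 were lower and 2 higher, and *Elane* met the criteria as lower (-1.57). On Meis1-KO 2, 4 of the 7 were well above background, and on Meis1-WT 2 it was 5. For 4 plasma cell markers the sum was 4.91 and 24.9 against 25.6 and 13.0, and for 8 B-lineage markers 12.0 and 8.49 against 18.7 and 7.68. For 5 T-lineage markers it was 0.223 and 0.417 against 0.237 and 0.737. No gene of these 3 lists met the criteria. Of 4 neuronal markers on the array, 3 had a brightest probe that was never well above background, and of 6 endothelial and stromal markers 4 did. The endothelial and stromal sum was 0.872 and 0.777 against 1.30 and 1.43. *Cxcl12* met the criteria as lower, although it was not well above background in either Meis1-KO sample. The part of these cells in the lower *Trpc6* and *Pcp4l1* signals was not tested.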

How the data were processed

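LSK cells of both genotypes were sorted, and 10 ng of RNA per sample was amplified, labelled with Cy3 and hybridised to 1-colour Agilent mouse arrays. The authors deposited the scanner output, with background-corrected, linear intensity values per spot, and a table of intensity values of the same arrays. The Feature Extraction version was 9.5.3.1 by the file headers (9.1 in the submitters' processing notes). Amplification of little RNA can widen the spread of dim probes.

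Spots of a probe were averaged without outlier spots. The log2 intensity minus the log2 of each array's 75th percentile was tested in R 4.3.3 with limma 3.58.1 (genotype only), for probes that passed the background flag in both samples of either genotype. The criteria were an unadjusted p under 0.01 and over 2-fold; Benjamini-Hochberg adjustment ran over all tested probes. The scripts were tested on simulated data. Members and lists were chosen with earlier results of these data known. Named were all members, the 3 brightest genes of each list, list genes that met the criteria and the 5 nearest patterns to *Trpc6* and *Pcp4l1*. One gene that this rule names is not reported here. Arrays on the same slide deviated together from their genotype means (correlation 0.266 over the tested probes). The slide, which is also the replicate number, was therefore tried as a block. Other alternatives changed the background correction, scaling, filter, test or table, or left out 1 array. With 2 arrays per genotype an exact permutation test cannot go below p = 0.333, and p-values measure the spread between pools. No array had a saturated spot. Coordinates are those of the files (mm9).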

Additional observations from a re-analysis of the deposited data

How the results depend on the processing

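None of the 4 tested member probes changed its direction under the alternatives run, 14 for *Trpc6* and *Pcp4l1* and 13 for each *Trpc1* probe, which could not be fitted when all 4 arrays had to be well above background. The untested probes were not followed through the alternatives. *Trpc6* ranged from -3.67 to -1.77, with -1.77 under normexp, and *Pcp4l1* from -3.22 to -2.14. As chosen genes they are described only, and by the methods' t-test neither would have been chosen. The counts of probes lower and higher in Meis1-KO, 132 and 30, were 47 and 2 under normexp background correction, 43 and 9 when probes had to be well above background on all 4 arrays, 23 and 7 by the methods' t-test, 85 and 16 with an intensity trend, and 308 and 130 with the replicate block, and the higher count was 100 without the filter on dim probes. Leaving out each array in turn gave 57 to 1705 lower and 34 to 510 higher probes, with the highest counts without Meis1-KO 1; each such fit takes its spread from the genotype that keeps both arrays. The replicate block changed the call of neither tested *Trpc1* probe. Among the listed genes that the naming rule picked, the sign of some small differences turned: *Fkbp4* under normexp (-0.12) and quantile normalization (-0.16), *Slc9a3r2* under normexp (-0.0056), *Tmem66* under normexp (-0.097) and quantile normalization (-0.096), and *Atp2b1* under median scaling (0.0035). Leaving out each array in turn also turned the sign of 15 of these, whose differences then ranged as follows: *Calm2* -0.044 to 1.00, *Calm3* -0.22 to 1.20, *Fkbp4* -0.32 to 0.48, *Slc9a3r2* -0.012 to 0.34, *Plcg2* -0.97 to 0.42, *Dgkz* -0.68 to 0.029, *Tmem66* -0.28 to 0.50, *Atp2a2* -0.35 to 0.16, *Atp2b1* -0.44 to 0.27, *Atp2c1* -0.63 to 0.097, *Camkk1* -0.18 to 0.94, *Iqgap1* -2.06 to 0.033, *Cask* -0.040 to 0.85, *Trpm7* -0.26 to 0.37 and *Mcoln1* -0.071 to 1.51. Of the other 46 tested genes of the lists, 18 changed sign under normexp, 5 under median scaling, 4 under quantile normalization, and 6 to 17 when 1 array was left out. The cause was not tested. Precision is limited by 2 arrays per genotype and by dim probes.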
